A study of Mus musculus with 6 samples.

Results

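The genes of the mitochondrial ribosome's own proteins were followed in kidney cortex from mice without the C3a receptor. They were the named transcripts of the array whose symbol in the array files begins with Mrpl or Mrps and a number. This gave 77 genes (48 Mrpl and 29 Mrps genes, on 119 probes) of 36944 named genes on the array. Each gene was read from its brightest probe among those that stood well above background on the 3 arrays of either genotype or both. On that rule 76 members (47 Mrpl and 29 Mrps genes) were tested among 20489 genes, and all 76 were well above background on all 6 arrays. Mrpl57 was not tested, because its only probe had an array with no unflagged spot.

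The groups were C3aR-/- control mice, which lack the receptor of the complement fragment C3a, and wild-type (WT) control mice, both male and labelled C57BL/6. Each genotype had 3 one-colour arrays of renal cortical RNA. Both groups were, per the labels, 8 weeks old at the start, ate chow with 10% of calories from fat, were injected with vehicle after 4 weeks and were killed 20 weeks after the time of induction in the diabetic arm, which was not analysed here. The labels do not name the cell types without the receptor, the deleted part of the gene or its derivation. They do not say that each sample was a separate animal either, so p-values here measure the spread between these samples, which may be partly technical.

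Mitochondria keep a small genome that codes for membrane-embedded subunits of the respiratory chain and ATP synthase, and they translate those transcripts on a ribosome of their own. The ribosomal RNAs come from mitochondrial DNA, whereas every protein of the ribosome is coded in the nucleus, made in the cytosol and imported. Mrpl genes code for the large subunit, which joins amino acids, and Mrps genes mostly for the small subunit, which reads the messenger RNA. The kidney cortex is rich in proximal tubule cells, which depend on respiration for salt and solute transport.

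C3ar1 had 1 probe, well above background on 1 of 6 arrays, with log2 levels of -5.60, -5.47 and -6.05 in C3aR-/- cortex and of -5.03, -6.17 and -5.60 in WT cortex. The genotype labels therefore could not be checked on this gene. A log2 level is the processed signal of a probe divided by its array's 75th percentile, on the log2 scale, and levels of different probes are not comparable. Between 33530 and 35147 of 59305 transcript spots per array were well above background, and none was saturated. C3aR-/- replicate 1 had 145 non-uniform spots against 2 to 8 on the other arrays. All C3aR-/- arrays lay on 1 slide and all WT arrays on another, so slide and genotype cannot be told apart in any difference below. All 8 proximal tubule markers and all 8 markers of other nephron segments were well above background on all 6 arrays.

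The mitochondrial ribosomal protein genes as a group had nearly the same level in both genotypes. The mean over the 76 members was 3.26, 3.31 and 3.30 on the 3 C3aR-/- arrays and 3.28, 3.35 and 3.23 on the 3 WT arrays, so the WT values enclosed all C3aR-/- values. The genotype means were 3.29 ± 0.03 in C3aR-/- cortex and 3.29 ± 0.06 in WT cortex (SD, n = 3 each). The median log2 change, C3aR-/- minus WT here and below, was -0.02 over the members and 0.02 over all genes tested. With the arrays scaled to their medians these medians were 0.04 and 0.07, so no direction can be given for the family. Log2 changes of single members ran from -0.36 to 0.38, or 0.782-fold to 1.30-fold.

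With an adjusted p under 0.05 in limma over all genes, 7 of 76 members (9.21%) were called, 4 higher and 3 lower in C3aR-/- cortex. The same rule called 14.3% of all 20489 genes (7.06% higher and 7.27% lower, which is 1446 and 1489 genes), and the members' share lay below that of all genes, a description without a test. At an unadjusted p under 0.05, 12 members were higher and 6 lower (23.7%), against 33.4% of all genes (18.1% higher and 15.3% lower). The arrays of the genotypes did not overlap in 36 members (47.4%; 16 higher and 20 lower), against 41.3% of all genes (22.2% higher and 19.1% lower). With median scaling the split of all calls was 1820 higher and 1052 lower, and that of the members 5 higher and 0 lower. With normexp background correction it was 8 higher and 3 lower among the members.

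Small changes were measured tightly in these genes. The 95% confidence interval of the change lay within 1.5-fold in both directions for 74 of 76 members (97.4%), against 67.1% of all genes. The exceptions, Mrpl44 and Mrps30, reached 0.60 and 0.59 at the upper end on the log2 scale. The median absolute log2 change was 0.09 over the members and 0.18 over all genes, and the median SE was 0.07 over the members and 0.10 over all genes. The members were also brighter, with a mean level of 3.29 in either genotype. Over all genes it was -0.15 in C3aR-/- cortex and -0.14 in WT cortex. Genes of like brightness were not set beside the members, so the narrow intervals cannot be read as a trait of this family. Bulk RNA holds all cells of the cortex, so fewer cells of a type and less RNA per cell cannot be told apart in any of these values.

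**Figure D1:**
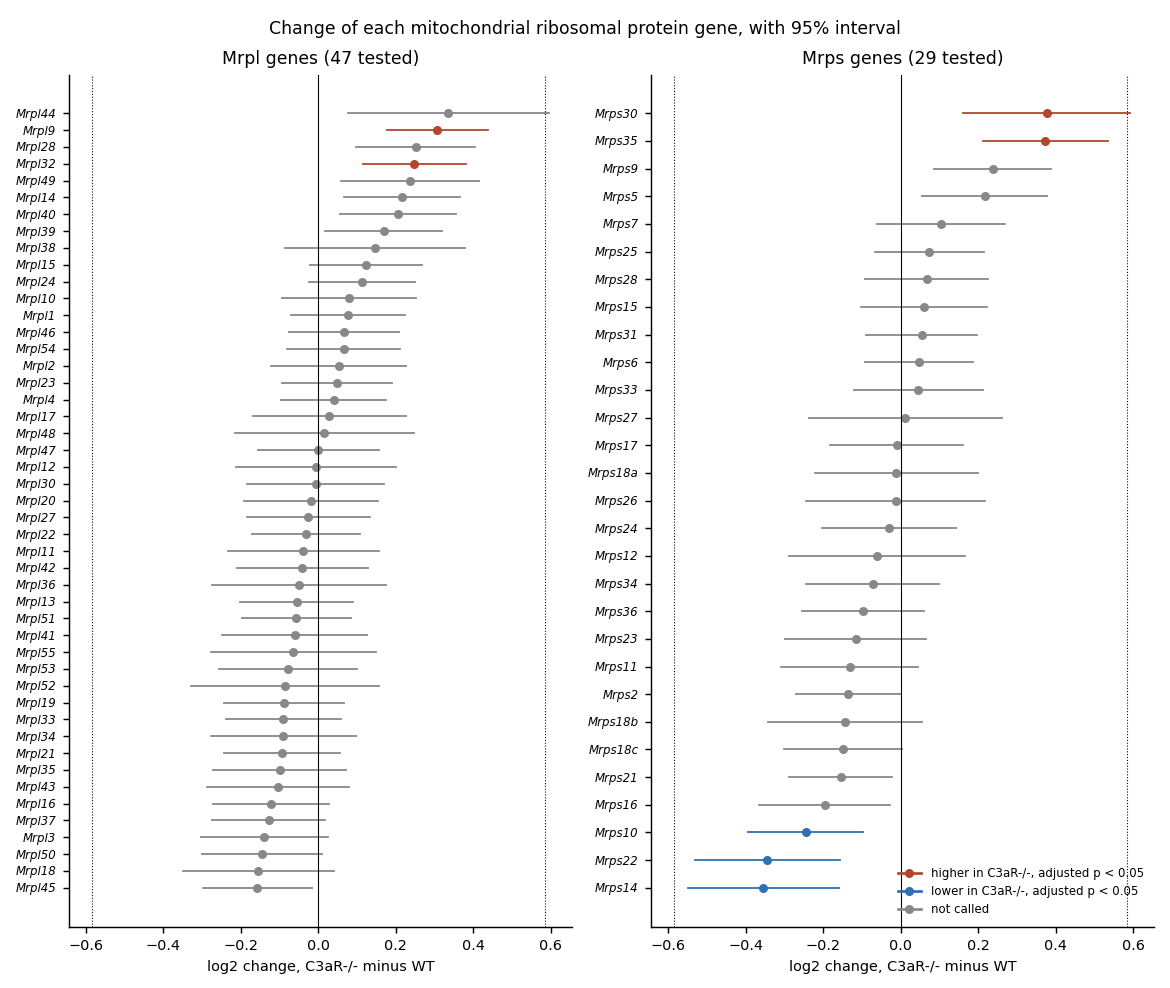
Log2 change (C3aR-/- minus WT) of each of the 47 Mrpl and 29 Mrps genes tested, as points, with its 95% confidence interval as a line (n = 3 arrays per genotype); dotted lines mark a change of 1.5-fold. The 7 coloured genes passed an adjusted p under 0.05, and the intervals of 74 of the 76 genes stay between the dotted lines.

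The large-subunit genes held 2 calls, both higher in C3aR-/- cortex. Of 47 Mrpl genes tested, 2 rose and 0 fell (4.26% called, against 14.3% of all genes), with a median log2 change of -0.02. At an unadjusted p under 0.05, 8 were higher and 1 lower (17.02% and 2.13%), against 18.1% and 15.3% of all genes. Their mean level was 3.29 ± 0.02 in C3aR-/- cortex and 3.27 ± 0.06 in WT cortex (SD, n = 3 each).

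Mrpl9, which codes for a large-subunit protein with a bacterial counterpart, had log2 levels of 2.96, 2.93 and 2.97 in C3aR-/- cortex, against 2.64, 2.67 and 2.62 in WT cortex. Every C3aR-/- array lay above every WT array, and the gap was wide against the spread within either genotype. Mrpl9 rose 1.24-fold (log2 change 0.31, SE 0.053, adjusted p = 0.022), and its other probe above background gave a log2 change of 0.21. The probe used lies on mm9 chromosome 3 at 94252370 to 94252429.

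Mrpl32, whose protein is cut to its mature form by the m-AAA protease before it joins the large subunit, had levels of 2.33, 2.31 and 2.30 in C3aR-/- cortex, against 2.10, 2.08 and 2.03 in WT cortex. The groups did not overlap. It rose 1.19-fold (log2 change 0.25, SE 0.055, adjusted p = 0.037), on 1 probe on mm9 chromosome 13 at 14702894 to 14702953.

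Among the Mrpl genes that were not called, the change of Mrpl44 was the highest of the 47 and that of Mrpl45 the lowest. Mrpl44 codes for a large-subunit protein with an RNase III-like fold, and it had levels of 0.38, 0.38 and 0.44 in C3aR-/- cortex, against 0.23, 0.11 and -0.15 in WT cortex. WT replicate 3 lay far below the other WT arrays there, and the log2 change of 0.34 (SE 0.11) had an adjusted p of 0.0868. Mrpl28 lay just over the threshold, with a log2 change of 0.25 and an adjusted p of 0.0501 in limma. Mrpl45, a protein at the exit of the ribosome's tunnel that in mammals anchors the ribosome to the inner membrane, had levels of 3.07, 3.01 and 3.11 in C3aR-/- cortex, against 3.24, 3.22 and 3.20 in WT cortex. These groups did not overlap either, but the log2 change of -0.16 (SE 0.058) had an adjusted p of 0.119. Mrpl18, a counterpart of bacterial L18, and Mrpl50, a large-subunit protein without a bacterial counterpart, had log2 changes of -0.15 each (adjusted p = 0.227 and 0.167).

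The Mrps genes held 5 calls, in both directions. Of 29 tested, 2 rose and 3 fell (17.2% called, against 14.3% of all genes), with a median log2 change of -0.01. At an unadjusted p under 0.05, 4 were higher and 5 lower (31.0%), against 33.4% of all genes. Their mean level was 3.29 ± 0.03 in C3aR-/- cortex and 3.31 ± 0.06 in WT cortex (SD, n = 3 each). The difference in share between Mrpl and Mrps genes was not tested.

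Mrps35, a small-subunit protein without a bacterial counterpart, had levels of 2.34, 2.38 and 2.27 in C3aR-/- cortex, against 1.89, 2.02 and 1.95 in WT cortex. All C3aR-/- arrays lay above all WT arrays. It rose 1.30-fold (log2 change 0.37, SE 0.066, adjusted p = 0.0226), measured by 1 probe that spans mm9 chromosome 6 from 147009999 to 147019119.

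Mrps30 bears a small-subunit name, but its protein, mL65, sits in the large subunit in the known structures. Levels were 2.30, 2.29 and 2.34 in C3aR-/- cortex, against 2.02, 2.02 and 1.76 in WT cortex. The groups did not overlap, although WT replicate 3 lay well under the other WT arrays. It rose 1.30-fold (log2 change 0.38, SE 0.088, adjusted p = 0.0421). With genes placed by structure and not by name, the large subunit held 3 rises and 0 falls among 49 tested genes, and the small subunit 1 rise and 3 falls among 26 (6.12% and 15.4% called, against 14.3% of all genes), where the falls include Mrps14, whose probes disagree as given below. Mrps18a, whose protein also belongs to the large subunit, had a log2 change of -0.01 (adjusted p = 0.941), and Mrps36, now assigned to the oxoglutarate dehydrogenase complex, one of -0.10 (adjusted p = 0.331).

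Mrps22, a small-subunit protein without a bacterial counterpart, had levels of 2.37, 2.29 and 2.49 in C3aR-/- cortex, against 2.72, 2.79 and 2.67 in WT cortex. All C3aR-/- arrays lay below all WT arrays. The log2 change was -0.34 (SE 0.076, adjusted p = 0.0375, 0.788-fold), while the other probe of the gene overlapped between genotypes at -0.11. Mrps10, a counterpart of bacterial S10, had 2.52, 2.54 and 2.51 in C3aR-/- cortex, against 2.75, 2.84 and 2.71 in WT cortex. These groups were also apart, with a log2 change of -0.25 (SE 0.060, adjusted p = 0.048, 0.844-fold) on 1 probe on mm9 chromosome 17 at 47515453 to 47515512.

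Mrps14, a counterpart of bacterial S14, had 2.68, 2.47 and 2.56 in C3aR-/- cortex, against 2.91, 3.01 and 2.85 in WT cortex on its brightest probe. The log2 change was -0.36 (SE 0.080, adjusted p = 0.0384), and the groups did not overlap. Its other probe, designed on a predicted transcript and well above background on 3 C3aR-/- and 2 WT arrays, had -4.22, -4.26 and -4.08 in C3aR-/- cortex, against -5.49, -4.55 and -5.15 in WT cortex. That is a log2 change of 0.88 in the opposite direction, so the direction holds for the brightest probe and not for the gene. Mrps9, a counterpart of bacterial S9, came next among the higher Mrps genes, at 1.49, 1.56 and 1.49 in C3aR-/- cortex, against 1.25, 1.35 and 1.24 in WT cortex (log2 change 0.24, adjusted p = 0.0543 in limma). The other probe of Mrps9 overlapped between genotypes, with a log2 change of 0.05 (SE 0.12).

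**Figure D2:**
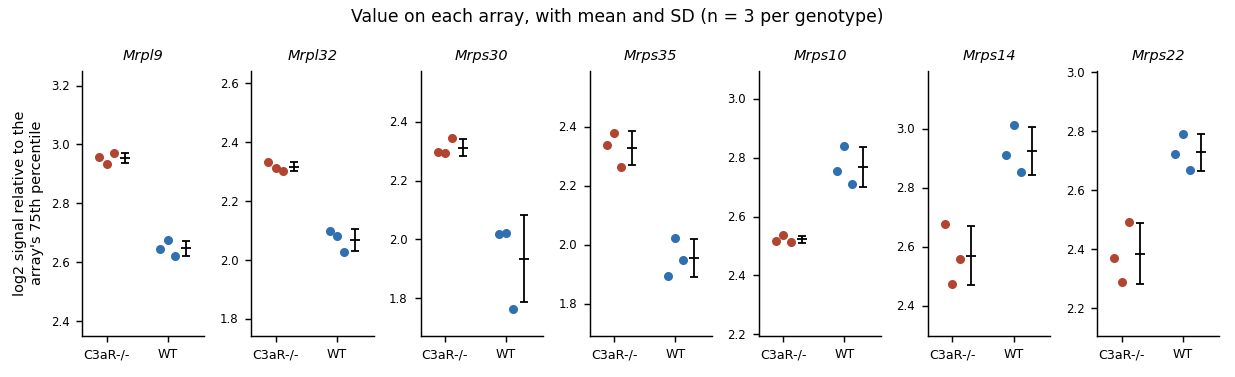
Log2 level relative to the array's 75th percentile (vertical axis, a separate range in each panel that does not start at 0) of the 7 called genes on each array; points are arrays, and the bar beside them is the mean with its SD (n = 3 per genotype). In all 7 panels the 3 C3aR-/- arrays lie apart from the 3 WT arrays, above them in Mrpl9, Mrpl32, Mrps30 and Mrps35 and below them in Mrps10, Mrps14 and Mrps22.

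These calls depended on having all 6 arrays. Without C3aR-/- replicate 1 only Mrps14 of the 7 was called, and without any one of the other 5 arrays 0 of the 7 were. Each of the 7 kept its sign with any array left out, and among all genes the calls numbered 733 to 1691 with an array left out. The 4 rises were called with all 3 other scalings or backgrounds, with the deposited table and with the mean of a gene's probes, whereas the 3 falls were not called with median scaling or with the mean of probes. Without a filter on dim probes 0 of 76 members and 936 genes in all were called, and the cause was not tested.

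**Figure D3:**
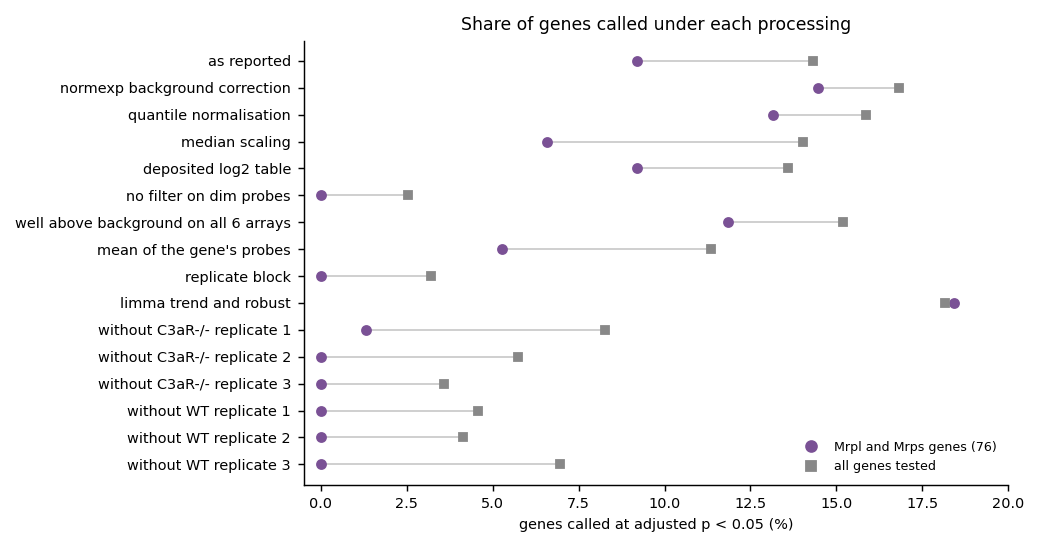
Share of genes called at an adjusted p under 0.05 (horizontal axis, percent) under each way of processing, for the 76 mitochondrial ribosomal protein genes (circles) and all genes tested (squares). The members lie at 9.21% against 14.3% as reported and stay below all genes except with limma's trend and robust options, where they reach 18.4% against 18.2%.

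Members with and without a bacterial counterpart had close medians. The 46 tested genes whose protein has a bacterial counterpart had a median log2 change of -0.02, with 2 higher and 2 lower (8.70% called, against 14.3% of all genes). The 27 tested genes for proteins that only mitochondria have gave a median of 0.01, with 2 higher and 1 lower (11.1% called). Mrps18a, Mrps18b and Mrps36 were placed in neither class.

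Several probes for a gene often disagreed on the sign of these small changes. Of 27 members with at least 2 probes that passed, 13 had probes of opposite sign and 14 did not, and the median distance from the probe used was 0.11 on the log2 scale. The 13 were Mrpl13, Mrpl24, Mrpl27, Mrpl38, Mrpl48, Mrps2, Mrps5, Mrps14, Mrps15, Mrps17, Mrps23, Mrps31 and Mrps33. The share of such genes over all genes is not given here. In most of the 13 the opposite sign came from a dimmer probe with an SE larger than its change. Such probes were those of Mrpl24 (-0.09, SE 0.24), Mrps15 (-0.05, SE 0.18), Mrpl13 (0.05, SE 0.17) and Mrps31 (-0.02, SE 0.09). Those of Mrps17 (0.04, SE 0.10), Mrpl48 (-0.13, SE 0.15), Mrps23 (0.06, SE 0.07) and Mrps5 (-0.04, SE 0.07) were too. These probes do not settle a sign. Mrpl27 had -0.03 on its brightest probe, with 0.01 (SE 0.09) and 0.08 (SE 0.07) among its others. Mrps2 showed the disagreement in every array, with a log2 change of -0.14 on its brightest probe and of 0.15 on its other probe, and no overlap between genotypes on either. Mrps33 had log2 changes of 0.05 and 0.11 on its brighter probes and of -0.33 on its dimmest. Mrpl38 had 0.15, -0.22 and 0.21 on its 3 probes.

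The WT arrays took the same order, replicate 2 above 1 above 3, in 50 of 76 members (65.8%), against 26.2% of all genes, while the commonest order of the C3aR-/- arrays, replicate 2 above 3 above 1, held in 26 (34.2%), against 16.7% of all genes. WT replicate 2 was the highest of the 3 WT arrays in 61 of 76 members (80.3%), against 40.1% of all genes. WT replicate 3 was the lowest in 59 members (77.6%), against 45.7% of all genes. In C3aR-/- cortex, replicate 1 was the lowest of the 3 arrays in 41 members (53.9%), against 30.9% of all genes, and replicate 2 the highest in 41, against 30.4% of all genes. The WT order held in 32 of 47 Mrpl and 18 of 29 Mrps genes, with WT replicate 2 highest in 39 of 47 Mrpl and 22 of 29 Mrps genes. These shares are descriptions without a test, because members of one array share its RNA, labelling and scaling. Most of the 16 tested genes of protein import and other mitochondrial housekeeping, given below, took that WT order too. Genes of like brightness were not set beside the members here, so the order cannot be read as a trait of this family. The median SD of a member was 0.04 between C3aR-/- arrays and 0.07 between WT arrays, against 0.11 and 0.10 over all genes, whose mean level was lower.

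**Figure D4:**
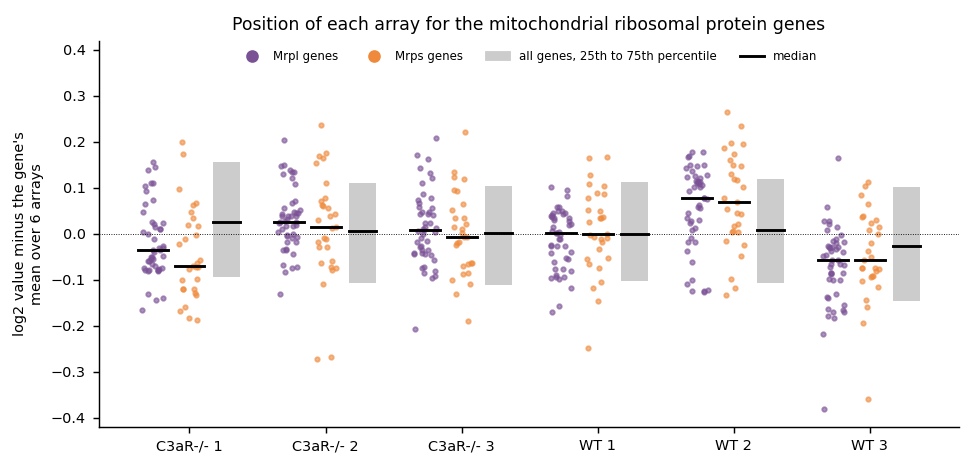
Log2 level of each gene on each array minus its mean over the 6 arrays (vertical axis), for Mrpl genes (purple, n = 47) and Mrps genes (orange, n = 29); black lines are medians and grey bars the middle 50% of all genes tested. The members' medians are highest on WT replicate 2 (0.08 for Mrpl and 0.07 for Mrps genes) and lowest on C3aR-/- replicate 1 for Mrps genes (-0.07) and on WT replicate 3 for Mrpl genes (-0.06).

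NRF1 and ETS factors such as GABP are known to act on the promoters of many nuclear genes for mitochondrial proteins. The window read here runs from 250 bases before to 50 bases after the first listed start (RefSeq, GRCm38.p6), and 68 of 77 members had one. The NRF1 letters GCGCNTGCG, on either strand, stood in 18 of 68 members (26.5%; 13 of 42 Mrpl and 5 of 26 Mrps genes), against 12.1% of 12304 tested genes with a window and 6.59% of all 27025 windows. The ETS letters CCGGAAG, on either strand, stood in 24 members (35.3%), against 15.9% of tested genes and 9.12% of all windows. The CCAAT letters were about as common in members (39.7%) as in tested genes (38.1%), and the letters GGGCGG were in 50.0% of members against 58.7% of tested genes. The YY1 letters AAGATGGCG were in 8 members (11.8%), against 2.76% of tested genes, and TATAAA in 4 (5.88%), against 8.39%. All were searched on both strands, and none holds the letters of another, although matches can overlap in place. A match is a description of letters and does not show that a factor binds.

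Of the 7 called members, 6 had a window. Both called Mrpl genes, which rose, hold the NRF1 letters, and Mrps22, which fell, holds the ETS letters. Mrps30, which rose, and Mrps10 and Mrps14, which fell, hold neither. The CCAAT letters and the letters GGGCGG were each in 3 of the 6. The upstream sequences of Mrpl9, Mrpl32 and Mrps22 are shown 5′ to 3′ up to the base before the start, with the NRF1 or ETS letters in capitals. Mrpl9 is chr3:94443086-94443335 on the plus strand, with matches on both strands that overlap, the first capital 28 bases before the start. Mrpl32 is chr13:14613038-14613241 on the minus strand, cut where the divergent gene Psma2 starts, with overlapping matches whose first capital lies 87 bases before the start and a further match 23 bases before it. Mrps22 is chr9:98601680-98601929 on the minus strand, with the motif's first base 11 bases before the start.
Mrpl9: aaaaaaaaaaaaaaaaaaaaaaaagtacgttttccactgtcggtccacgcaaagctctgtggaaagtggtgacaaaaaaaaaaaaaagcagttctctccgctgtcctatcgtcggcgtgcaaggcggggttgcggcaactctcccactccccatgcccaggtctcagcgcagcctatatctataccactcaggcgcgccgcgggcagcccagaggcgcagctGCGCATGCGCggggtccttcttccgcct
Mrpl32: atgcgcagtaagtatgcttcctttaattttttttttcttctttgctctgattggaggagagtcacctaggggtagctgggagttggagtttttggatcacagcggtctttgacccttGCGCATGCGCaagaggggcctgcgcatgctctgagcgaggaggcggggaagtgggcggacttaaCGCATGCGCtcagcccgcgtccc
Mrps22: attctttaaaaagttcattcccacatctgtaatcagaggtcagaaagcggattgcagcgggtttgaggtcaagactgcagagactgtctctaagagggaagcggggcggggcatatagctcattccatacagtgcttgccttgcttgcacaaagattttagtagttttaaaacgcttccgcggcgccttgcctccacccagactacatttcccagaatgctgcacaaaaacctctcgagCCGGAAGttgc

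The changes of the members were also set beside these motifs, as a description without a test. The 17 tested members with the NRF1 letters had a median log2 change of 0.03, and 9 of them were above 0. The 50 without these letters had a median of -0.05, and 18 of them were above 0. The 23 tested members with the ETS letters had a median of -0.09, and 20 of them were below 0, against a median of 0.03 in the 44 without, of which 20 were below 0. Among all tested genes 51.1% were above 0 where the ETS letters were present and 53.1% where they were not, and for the NRF1 letters these shares were 48.9% and 53.3%. Below 0 were also 7 of 8 tested members with the YY1 letters, against 33 of 59 without. For the CCAAT letters it was 18 of 27 with and 22 of 40 without. For the letters GGGCGG it was 17 of 33 with and 23 of 34 without, and for TATAAA 3 of 4 with and 37 of 63 without. Whether a lean below 0 was particular to the ETS letters was not tested. The ETS split was the widest in the median among the 6 motifs searched, and it was noticed after the values were seen.

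Many members have a neighbour that starts nearby and runs the other way, and whether they share a promoter was not tested. A divergent neighbour started within 1000 bases of 26 of the 68 members (38.2%), against 16.6% of tested genes with a window. Of 23 such neighbours tested, 4 were called, 2 higher and 2 lower in C3aR-/- cortex, where 14.3% of all genes were called. The same sign as their member was found in 14 of them, where Mrpl46 and Mrps11 each count as the other's neighbour. Pnpla7, a lysophospholipase that starts 935 bases from Mrpl41, rose (log2 change 0.98, SE 0.09, adjusted p = 0.0052), while Mrpl41 had a log2 change of -0.06 and was not called. Twnk, the helicase that copies mitochondrial DNA, starts 116 bases from Mrpl43 and had levels of -0.86, -0.80 and -0.81 in C3aR-/- cortex, against -1.24, -1.35 and -1.33 in WT cortex. It rose (log2 change 0.48, SE 0.06, adjusted p = 0.0102), while Mrpl43 had a log2 change of -0.10 and was not called. Helq, a DNA helicase beside Mrps18c, fell (log2 change -0.47, adjusted p = 0.0149), with Mrps18c at -0.15 and not called. Ppp1r10, a regulatory subunit of protein phosphatase 1 beside Mrps18b, fell too (log2 change -0.32, adjusted p = 0.0297), with Mrps18b at -0.14 and not called. Psma2, a proteasome subunit beside Mrpl32, had -0.19 and was not called (adjusted p = 0.125), where Mrpl32 rose.

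One pair joins both subunits. Mrpl46 and Mrps11 start 42 bases apart on opposite strands, and the 41 bases between their starts (chr7:78783090-78783130, GRCm38.p6) are shown as read toward Mrps11 on the plus strand, without NRF1 or ETS letters.
Mrps11: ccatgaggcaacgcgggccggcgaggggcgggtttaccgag

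Mrpl46 had 2.01, 2.06 and 2.05 in C3aR-/- cortex, against 1.95, 2.03 and 1.94 in WT cortex. Mrps11 had 0.83, 0.92 and 0.84 in C3aR-/- cortex, against 0.93, 1.11 and 0.96 in WT cortex. The groups overlapped for Mrpl46 and not for Mrps11, with log2 changes of 0.07 and -0.13, and neither was called (adjusted p = 0.458 and 0.251 in limma).

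Proteins of the same ribosome whose symbol in the array files falls outside the name rule gave no call. They include Mrpl58, which has that symbol in RefSeq and another name in the array files. Among 6 such genes tested 0 rose and 0 fell, against 14.3% of all genes called, with a median log2 change of -0.01. Ptcd3, a pentatricopeptide protein of the small subunit, had a log2 change of -0.17 (adjusted p = 0.0915), with its other probes at 0.23 and -0.05. Chchd1, a small-subunit protein, also had -0.17 (adjusted p = 0.103).

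Factors that build the ribosome held 5 calls with the settings used here, and fewer with most others. Of 25 assembly and ribosomal RNA modification genes tested, 5 rose and 0 fell (20.0%, against 14.3% of all genes), with a median log2 change of 0.06 against 0.02 over all genes. With the deposited log2 values 2 of 25 were called (8%, against 13.6% of all genes), and with a gene's probes averaged 3 of 25 (12%, against 11.4%). With limma's trend and robust options 6 were higher and 1 lower, and with no filter on dim probes or with the replicate block 1 was called. With an array left out 0 to 1 were called. Mterf4, which brings the methyltransferase NSUN4 to the large subunit, had 1.503, 1.354 and 1.414 in C3aR-/- cortex, against 0.934, 1.002 and 0.881 in WT cortex. The groups lay far apart, and Mterf4 rose by a log2 change of 0.48 (SE 0.07, adjusted p = 0.0139), with 0.23 on its other probe. It was still called with 4 of the 6 arrays left out in turn. Mettl15, a methyltransferase of the small subunit's RNA, rose by 0.28 (adjusted p = 0.027). Mrm3, which methylates the large subunit's RNA, rose by 0.30 (adjusted p = 0.0378), and the helicase Ddx28 by 0.31 (adjusted p = 0.0455). Rbfa, which binds the small subunit's RNA during assembly, rose by 0.29 (adjusted p = 0.0499). None of these last 4 was called with an array left out.

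Translation factors and tRNA charging enzymes held 3 calls. Of 16 translation factors tested, 1 rose and 1 fell (12.5% called, against 14.3% of all genes). Tsfm, the nucleotide exchange factor of the elongation factor that brings tRNAs, rose by a log2 change of 0.28 (adjusted p = 0.0415). Gfm2, which helps to split ribosomes after termination, fell by 0.29 on its brightest probe (adjusted p = 0.037), with its 5 other probes between -0.19 and 0.33. Of 20 genes for tRNA charging, 0 rose and 1 fell (5% called). It was Qrsl1, a subunit of the enzyme that makes glutaminyl-tRNA, with a log2 change of -0.34 (adjusted p = 0.0293 in limma). Tsfm and Gfm2 were called with 0 of the 6 arrays left out in turn, and Qrsl1 with 1.

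Among 8 genes for expression and copying of mitochondrial DNA, Twnk rose as given above and Polrmt, the mitochondrial RNA polymerase, fell. That is 25% called, against 14.3% of all genes. Polrmt had 1.47, 1.37 and 1.39 in C3aR-/- cortex, against 1.74, 1.72 and 1.63 in WT cortex (log2 change -0.29, adjusted p = 0.0366 in limma). Twnk was called with each of the 6 arrays left out in turn, and Polrmt with none.

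Of 10 nuclear regulators tested, 0 were called higher and 2 lower on their brightest probes, Nrf1 and Gabpa (20% called, against 14.3% of all genes). With normexp or with median scaling 2 were called higher and 2 lower, and with a gene's probes averaged 1 was higher and 0 lower, so no direction can be given for these genes as a group. Nrf1, the factor of the NRF1 letters, had 0.13, 0.01 and 0.06 in C3aR-/- cortex, against 0.47, 0.40 and 0.42 in WT cortex (log2 change -0.37, adjusted p = 0.0204 in limma), with its other probes at -0.10 and -0.04. Gabpa, the DNA-binding subunit of the ETS factor GABP, had -0.02, -0.13 and 0.03 in C3aR-/- cortex, against 0.35, 0.45 and 0.41 in WT cortex (log2 change -0.44, adjusted p = 0.0169 in limma). Its other probes gave 0.28 and 0.09, so no direction can be given for the gene. Among 16 genes of protein import and other mitochondrial housekeeping, 1 fell and 0 rose (6.25% called, against 14.3% of all genes). It was Vdac3, a channel of the outer membrane, with a log2 change of -0.24 (adjusted p = 0.0497 in limma). Vdac3 was not called with any array left out.

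**Figure D5:**
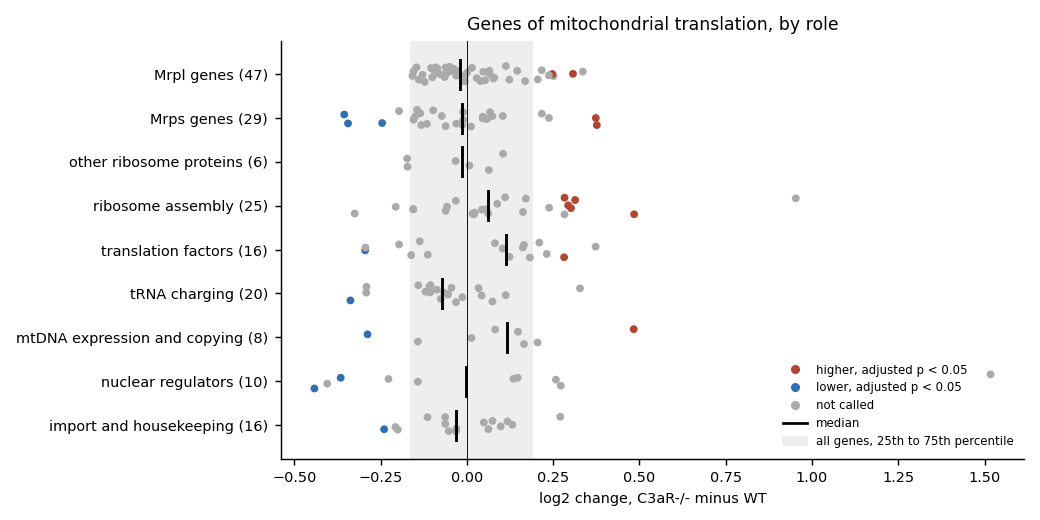
Log2 change (C3aR-/- minus WT, horizontal axis) of every tested gene in the groups of mitochondrial translation and its regulators; each point is a gene, the black line a group's median, and the grey band the middle 50% of all genes tested. All 5 called assembly genes lie to the right of 0, the called Mrps genes lie on both sides, and the brightest probes of Nrf1 and Gabpa lie to the left, where Gabpa's other probes gave 0.28 and 0.09.

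Some markers of the cell types in the cortex also differed between the genotypes, on the rule that called 14.3% of all genes. All 8 proximal tubule markers had log2 changes above 0 and 2 of them rose, Slc5a12 (0.73, adjusted p = 0.00814) and Slc5a2 (0.34, adjusted p = 0.0335), both sodium-coupled transporters. Their summed signal, in units of the array's 75th percentile, was 669 to 685 in C3aR-/- cortex and 572 to 615 in WT cortex. Of 6 immune markers tested, 3 fell (Jchain and Mzb1 of plasma cells, and Cd68 of macrophages) and 0 rose, with log2 changes of 0.27 for Ptprc, 0.05 for Cd3e and -0.10 for Adgre1, which were not called. Their summed signal was 3.16 to 3.74 in C3aR-/- cortex and 5.45 to 6.88 in WT cortex, and without Jchain 2.60 to 3.34 in C3aR-/- cortex and 2.91 to 3.09 in WT cortex. Of 8 markers of other nephron segments, 7 had log2 changes above 0. Their median over all 8 was 0.26, against 0.20 for the proximal tubule markers. Of these 8, Aqp2 rose and Slc4a1 fell, and the summed signal was 232 to 249 in C3aR-/- cortex and 214 to 228 in WT cortex. Of 6 endothelial and stromal markers, Pecam1 rose and Kdr fell, with a summed signal of 23.65 to 27.02 in C3aR-/- cortex and of 27.72 to 32.05 in WT cortex. Of 5 fat markers, Adipoq, Plin1, Cfd and Ucp1 did not pass the filter on dim probes, and Cidea was not called. Of 4 erythroid markers 0 were called, and the summed signal was 212 to 284 in C3aR-/- cortex and 221 to 270 in WT cortex. The part of these cell types in the changes of the mitochondrial ribosomal protein genes was not tested.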

How the data were processed

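Kidney cortex RNA from 3 C3aR-/- and 3 WT control samples was hybridised to 1-colour Agilent arrays, grouped by the sample titles. Per the file headers and the submitters' processing notes, Agilent Feature Extraction 10.7.1.1 gave each spot a background-subtracted intensity and flags, on mouse build mm9. The authors also deposited a table of log2 values, whose columns have equal sorted values to within 0.000903 and a median of 5.38. Its columns correlate with the log2 intensity of their own array at 0.995 to 0.996, its further centring is not stated in the labels or headers, and it served as an alternative.

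The log2 processed intensity minus each array's 75th percentile (662 to 827) was used. Flagged and control spots were left out, which removed 106 of 56605 probes. Symbols came from RefSeq (GRCm38.p6) for 32994 probes and otherwise from the array files. Probes well above background on all 3 arrays of a genotype were kept, and the brightest stood for its gene. Genotypes were compared with limma 3.58.1 in R 4.3.3 (lmFit and eBayes, two-sided), with Benjamini-Hochberg adjustment over all 20489 genes. Every adjusted p is from that fit unless an alternative is named. The number of arrays limits the precision.

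Named were the called members, the 3 highest and 3 lowest changes of Mrpl and of Mrps genes, members with probes of opposite sign, Mrps30, Mrps18a, Mrps36 and C3ar1, and up to 6 called genes of each list, or the 2 with the smallest p. Neighbours and motifs were added later. The members and lists were chosen with earlier results of these data known. Alternatives were normexp, quantile and median scaling, the deposited table, both dim-probe filters, the mean of a gene's probes, a replicate block, limma's trend and robust options, and leaving out each array. The arrays were not treated as paired by replicate number. Correlations of same-numbered deviations over all genes were 0.04, -0.03 and -0.07, which shows no pairing but cannot exclude one with 3 arrays per genotype.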

Additional observations from a re-analysis of the deposited data

How the results depend on the processing

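The count of called Mrpl genes (2) was 5 with normexp background correction, 6 with limma's trend and robust options, 0 with no filter on dim probes and 0 with any array left out. For Mrps genes (5) it was 2 with median scaling, 2 when probes were averaged per gene, 8 with trend and robust options, 0 with no filter, and 0 to 1 with an array left out. The genes called among the lists of related genes (13) numbered 2 with no filter, 23 with trend and robust options and 2 to 5 with an array left out. All calls (2935) numbered 936 with no filter and 733 to 1691 with an array left out. The median log2 change of Mrpl genes was 0.0325 with median scaling and -0.0577 to 0.0274 with an array left out, that of Mrps genes 0.0384 with median scaling and -0.0618 to 0.0225 with an array left out, and that of all genes 0.0671 with median scaling and -0.0908 with no filter, a shift of -0.11 (at most 0.05 in size in every other setting). Mrps14 turned to 0.26 (adjusted p = 0.259 in limma) with the mean of its probes, because its dim probe enters that mean. The other causes were not tested.

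With the replicate number as a replicate block, 657 genes, 0 Mrpl genes, 0 Mrps genes and 1 gene of the related lists were called. Only replicate 1 correlated best with its own number, so no pairing was assumed and no more is read from this fit. Spots well above background (56.5% to 59.3% per array) set which genes could be measured, and 3 arrays per genotype limit the rest. Outliers were not tested in groups of 3 arrays.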

Other observations

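The transcripts that the mitochondrial ribosome translates are coded in mitochondrial DNA, and 11 of them had a tested probe named in the array files. They were picked after their values were seen, so their values are a description. COX2, a subunit of cytochrome c oxidase, had log2 levels of 7.07, 6.79 and 6.82 in C3aR-/- cortex, against 6.55, 6.47 and 6.34 in WT cortex (log2 change 0.44, adjusted p = 0.0413 in limma). All C3aR-/- arrays lay above all WT arrays there. ND6, a subunit of complex I and the only protein coded on the other strand, had -1.96, -2.37 and -2.31 in C3aR-/- cortex, against -1.76, -1.47 and -1.61 in WT cortex (log2 change -0.60, adjusted p = 0.038 in limma). The other 9 were not called, with log2 changes of 0.06 to 0.46, where 14.3% of all genes were called. C3aR-/- replicate 1, the array with 145 non-uniform spots, was the highest C3aR-/- array for each of the 11 transcripts. ATP8, for example, had 5.41 on it, against 5.13 and 4.82 on C3aR-/- replicates 2 and 3. The part of this array in these changes was not tested. ND2, a subunit of complex I, was nearest, with 6.43, 6.21 and 6.17 in C3aR-/- cortex, against 5.98, 5.87 and 5.65 in WT cortex (adjusted p = 0.0567 in limma). The probe named ND3 is placed on chromosome 1 in the array files, so it may not measure the mitochondrial transcript.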
